A study of Mus musculus with 4 samples.

Results

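Ribosome biogenesis and RNA polymerase I genes were examined in leukaemia stem cells, the fraction of leukaemic cells in the marrow that can restart the disease. The group was defined by gene symbol, without regard to measured values. It held every gene whose symbol begins with Nop, Utp, Polr1, Rrp, Bop1, Pes1, Nol followed by a digit, or Imp followed by 3 or 4, together with 13 genes named singly (Fbl, Dkc1, Ncl, Npm1, Nhp2, Gar1, Gnl3, Ubtf, Rrn3, Wdr12, Wdr43, Nip7 and Ebna1bp2). This gave 57 of the 16442 genes in the deposited table, and all 57 are analysed here. The cells came from bone marrow of C57BL/6 mice with leukaemia, in 2 libraries labelled Rreb1 knockout (KO) and 2 labelled wild type (WT); Rreb1 encodes a transcription factor with zinc fingers. The labels do not say how the leukaemia was started, how Rreb1 was removed, in which cells, the age of the mice, or whether a library came from a single mouse or a pool. The genotype label of KO library 2 reads Rreb2, its title gives KO alone, and the series text speaks of Rreb1. The extraction text is written for TAMs, and the LSC of the titles is spelled out in the series text as leukaemia stem cells.

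Ribosome assembly starts in the nucleolus, where RNA polymerase I copies the ribosomal DNA repeats into a long precursor RNA. Small nucleolar ribonucleoproteins (snoRNPs) then modify and fold that precursor, and large sets of assembly factors build the small and the large subunit around the pieces cut from it. The programme takes up much of the energy of growing cells, it is under the control of the transcription factor MYC, and the nucleolar protein nucleophosmin (Npm1) is among the proteins most often mutated in human acute myeloid leukaemia. The data here are poly(A) mRNA levels, so they measure the transcripts that encode these factors and not ribosomal RNA, snoRNAs or ribosomes.

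Libraries held 16590830 to 18451251 assigned reads. Rreb1 itself stood at 6.10 and 6.93 FPKM (fragment counts divided by exon length and by library total) in the KO libraries, against 5.24 and 6.57 FPKM in the WT libraries, so the transcript level over all exons does not check the genotype and KO and WT stand for the labels throughout. Of 6 stem and leukaemia genes 3 had a log2 change above 0 and 3 below, and 0 passed limma (limma-voom called 1 rise and 2 falls, against 4.4% higher and 2.99% lower over all genes). Among the 6, the growth factor receptor gene Kit was at 7.36 and 7.15 FPKM in KO against 3.65 and 4.25 FPKM in WT. The progenitor surface gene Cd34 was at 50.5 and 49.8 FPKM in KO against 68.3 and 71.4 FPKM in WT, and the receptor gene Flt3 at 19.6 and 17.7 FPKM in KO against 26.2 and 28.2 FPKM in WT. Of 6 granulocyte precursor genes 0 passed limma (limma-voom called 1 rise and 1 fall): the myeloperoxidase gene Mpo was at 192 and 166 FPKM in KO against 399 and 309.5 FPKM in WT, the transcription factor gene Gfi1 at 8.81 and 13.5 FPKM in KO against 5.92 and 7.45 FPKM in WT, and the protease gene Elane at 7205 and 6264 FPKM in KO against 7121 and 5204 FPKM in WT. Markers of other cell stages differed with genotype: of 11 mature neutrophil markers 8 rose, with a summed level of 2948 and 3533 FPKM in KO against 1280 and 1305 FPKM in WT, and of 6 tested erythroid markers 5 rose, with sums of 421 and 514 FPKM in KO against 92.6 and 83.5 FPKM in WT. Of 6 tested macrophage markers 4 fell, with sums of 63.2 and 61.8 FPKM in KO against 112 and 131 FPKM in WT. Of 6 monocyte markers 2 fell by limma and 4 by limma-voom, and 5 lay below WT in both KO libraries (24.9% of all tested genes). Their sums of 764 and 828 FPKM in KO against 770.5 and 694 FPKM in WT were mostly Ly6c2. That gene, the 1 that lay above WT, was at 645 and 705 FPKM in KO against 563 and 514 FPKM in WT. Of 4 tested B cell markers 2 fell, with sums of 106 and 93.1 FPKM in KO against 172 and 159 FPKM in WT. Of 4 tested T and NK cell markers 0 passed limma, and limma-voom called 1 fall. In this list 3 tested markers lay below WT in both KO libraries (24.9% of all tested genes). Nkg7, at 426 and 356 FPKM in KO against 282 and 341 FPKM in WT, lay above (30.5%). No listed marker in the table was at 0 in every library. The part of these shifts in the values below was not tested, and in bulk RNA fewer cells of a type and less RNA per cell cannot be told apart.

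No ribosome biogenesis or polymerase I gene passed the test. Of the 57 genes, 55 had a mean of at least 1 FPKM and were tested, and 0 rose and 0 fell in KO (limma on log2(FPKM + 1), adjusted p below 0.05 over 11768 genes), where the background over all tested genes was 0.603% called higher and 0.408% called lower. The smallest adjusted p was 0.0804, for Dkc1. The direction of the small differences was uneven: 42 of the 55 genes (76.4%) had a log2 change below 0, against 46% of all tested genes, and the median log2 change was −0.11, against 0.03 over all tested genes. In 26 of the 55 genes (47.3%) neither KO value reached the lower WT value, against 24.9% of all tested genes, and in 7 (12.7%) both lay above, against 30.5%. With 1 library left out this rule is looser and both counts can only grow, so such counts say nothing on stability. At an unadjusted p below 0.05, 12 members were lower (21.8%, background 9.35%) and 0 were higher (background 11.4%). With 1 library left out, fewer genes of any kind can pass, and the share over all genes at this threshold was not computed. Counts from those fits are therefore not given. The median was −0.08 without KO library 2, whose labels disagree, and −0.16 without KO library 1. It was −0.13 without WT library 1 and −0.08 without WT library 2. A second test, limma-voom on recovered read counts, called 2 of the 55 members lower, Dkc1 and Nop53, and 0 higher. Its backgrounds were 2.99% lower and 4.4% higher of 11374 genes, so the share called lower is near the background.

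The sizes of these differences were modest and their limits were narrow for most members. The largest absolute log2 change among the tested members was 0.44, and 6 members exceeded 0.3. The 95% limits of limma reached below −0.58 in 4 members and above 0.58 in 0. A log2 change of 0.58 is 1.5-fold in FPKM + 1, and more than that in FPKM for members of low level. The highest upper limit, 0.57, was that of Utp25, the tested member with the lowest level, so it does not bound a rise at 1.5-fold in FPKM. Members were expressed at high levels relative to the rest, with a median of 22.5 FPKM against 7.22 FPKM over all tested genes, and the tested member with the fewest reads still had 135 in its lowest library. Replicates differed by a median of 0.09 between the KO libraries and 0.10 between the WT libraries on the log2 scale, and in 26 members the difference between genotypes was larger than both gaps between replicates, with KO lower in 21 of these (38.2%, against 18.8% of all tested genes) and higher in 5 (9.09%, against 23.1%).

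**Figure D1:**
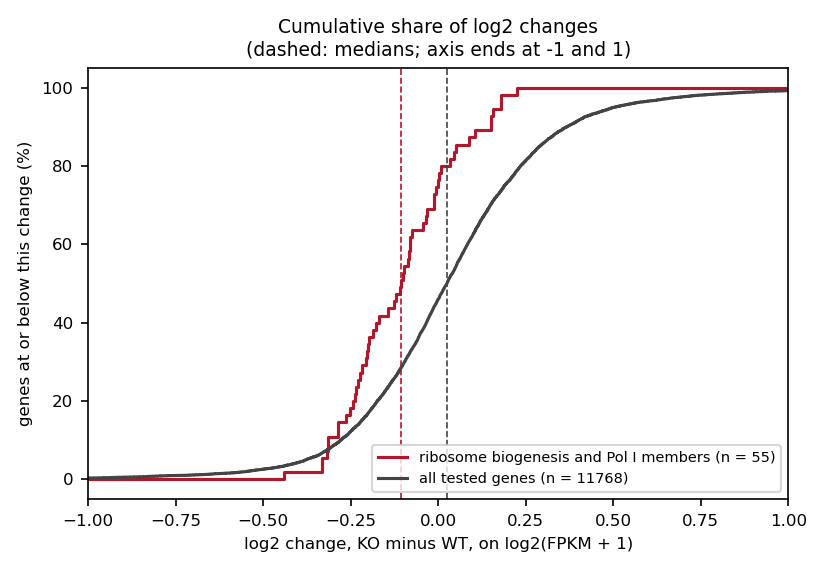
Cumulative share of genes (%) by log2 change, KO minus WT, for the 55 tested ribosome biogenesis and polymerase I genes and for all 11768 tested genes, with dashed lines at the medians of −0.11 and 0.03. The members' curve lies above that of all genes to the right of the lowest members and reaches 100% at 0.23.

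Promoter sequences were looked at for the E-box CACGTG, the letters that MYC-MAX dimers and related factors bind, because the set is known as a target of MYC. RefSeq promoter windows (GRCm38.p6, 250 bases before to 50 bases after a start site) were available for 48 of the 57 members. The motif, which reads the same on both strands, was found in 12 of the 48 (25%), against 12.2% of 8398 tested genes with a window and 8.09% of all 27025 genes with a window. A gene counted if any of its windows held the motif, and members and all genes were counted alike. The 12 were Imp4, Nol11, Nop2, Pes1, Rrn3, Rrp7a, Utp14b, Utp18, Utp20, Utp25, Utp4 and Wdr43. Utp14b was not among the tested genes, so the 25% and the 12.2% are not over quite like sets. Of the 11 tested members with the motif 9 had a log2 change below 0, with a median of −0.20, and of the 35 tested members without it 24 did, with a median of −0.08; this difference was not tested. A match is a string of letters and not a bound site. The windows of 3 members are given as 5′ to 3′ runs on the gene's strand, with the motif in capitals: Rrn3, the polymerase I initiation factor, whose window holds it at 2 places (first bases at −215 and −48 from the start site; chr16:13780449-13780748, plus strand), Utp18, the motif-bearing member with the lowest log2 change (at −20; chr11:93885717-93886016, minus strand), and Dkc1, the member with the lowest log2 change of all, whose window holds none (chrX:75095604-75095903, plus strand).
Rrn3: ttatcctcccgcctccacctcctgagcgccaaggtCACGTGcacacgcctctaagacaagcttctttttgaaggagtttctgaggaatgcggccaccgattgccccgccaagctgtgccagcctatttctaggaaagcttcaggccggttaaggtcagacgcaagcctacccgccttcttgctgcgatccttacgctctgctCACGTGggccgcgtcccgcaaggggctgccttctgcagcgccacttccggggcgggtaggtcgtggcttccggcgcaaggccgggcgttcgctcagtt
Utp18: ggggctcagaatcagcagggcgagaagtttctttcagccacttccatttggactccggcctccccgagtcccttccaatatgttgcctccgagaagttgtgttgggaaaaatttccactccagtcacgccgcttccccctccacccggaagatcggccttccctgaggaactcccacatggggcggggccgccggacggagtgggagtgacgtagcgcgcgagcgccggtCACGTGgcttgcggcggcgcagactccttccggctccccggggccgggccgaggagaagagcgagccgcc
Dkc1: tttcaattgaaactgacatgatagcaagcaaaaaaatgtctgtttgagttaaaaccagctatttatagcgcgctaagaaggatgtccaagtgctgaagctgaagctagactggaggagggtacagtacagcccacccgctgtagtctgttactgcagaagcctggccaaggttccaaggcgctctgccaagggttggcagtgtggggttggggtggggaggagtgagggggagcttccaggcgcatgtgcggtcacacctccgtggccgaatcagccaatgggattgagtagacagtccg

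Among the 7 polymerase I genes, 4 lay below both WT libraries in both KO libraries and 1 lay above (24.9% and 30.5% of all tested genes). Polr1c, a subunit shared with RNA polymerase III, was at 18.8 and 19.8 FPKM in the KO libraries, against 23.2 and 23.4 FPKM in the WT libraries. The groups were apart by more than the gap within either, at −0.26 on the log2 scale (SE 0.08, limma adjusted p = 0.172). Polr1b, the second-largest subunit, which builds the active site together with the largest, was at 5.19 and 5.36 FPKM in KO against 6.65 and 6.06 FPKM in WT (log2 change −0.23, adjusted p = 0.271). Polr1e, which belongs to a mobile module of the enzyme, was at 11.6 and 10.3 FPKM in KO against 12.8 and 12.9 FPKM in WT (−0.22, adjusted p = 0.267). Polr1a, the largest subunit, lay the other way, at 6.06 and 6.59 FPKM in KO against 5.37 and 5.83 FPKM in WT (0.15, adjusted p = 0.444). Polr1d, also shared with polymerase III, was the most abundant transcript of the set at 39.9 and 37.0 FPKM in KO and 39.1 and 38.4 FPKM in WT, and its groups overlapped. Levels per length thus spanned from about 5 to 40 FPKM among the 5 subunits whose symbols begin with Polr1.

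Rrn3 and Ubtf act where the polymerase meets its promoter. Rrn3, which links the polymerase to promoter-bound factors and whose window is shown above, was at 12.0 and 14.1 FPKM in the KO libraries, against 15.5 and 15.5 FPKM in the WT libraries. Both KO values lay below WT but apart from each other, and limma gave −0.23 on the log2 scale (SE 0.10, adjusted p = 0.265). Ubtf, the architectural protein that keeps ribosomal DNA open, was at 18.2 and 20.7 FPKM in KO against 18.8 and 17.6 FPKM in WT, and its groups overlapped. Over the 7 genes 0 rose, 0 fell, and 5 had a log2 change below 0, where 46% of all tested genes did. The median was −0.22, against 0.03 over all tested genes, and was −0.13 without KO library 1 and −0.14 without KO library 2. The symbol rule leaves out other subunits of the enzyme, which lay on both sides of 0 and are given below.

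**Figure D2:**
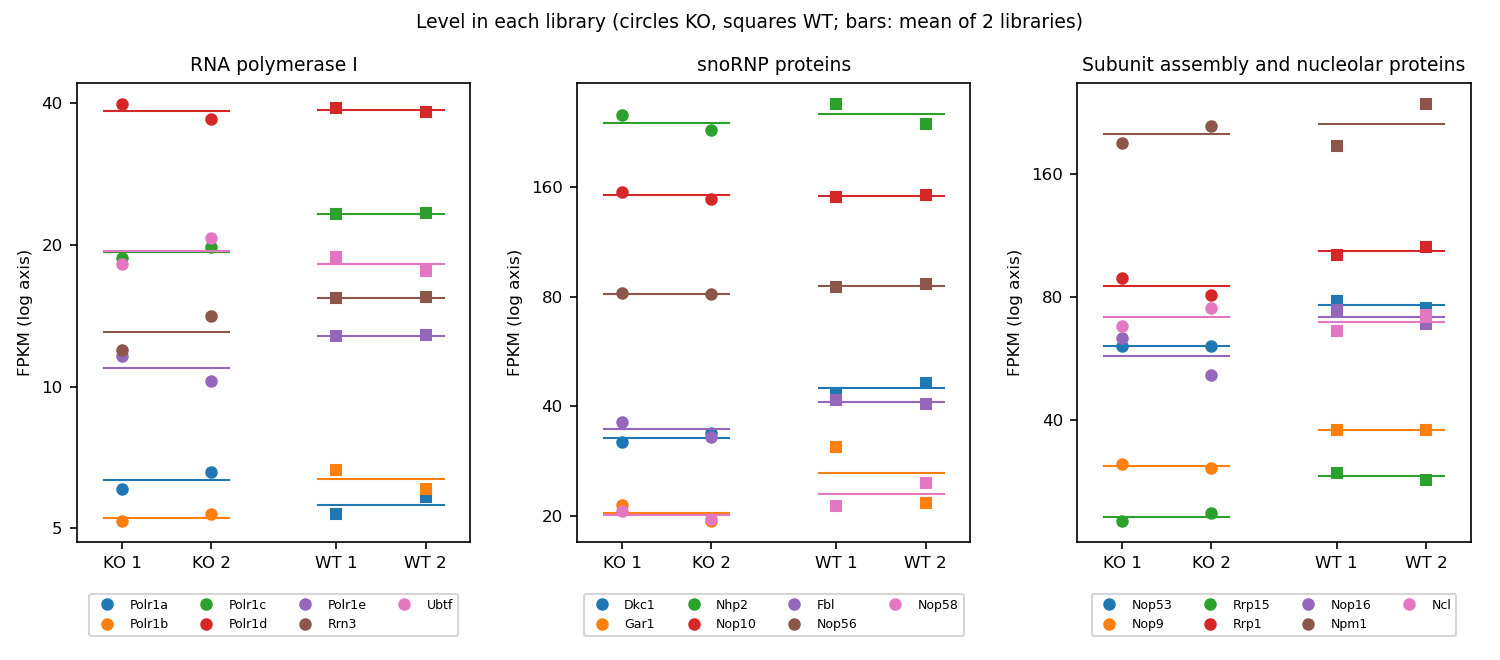
Level in FPKM (log axis) of 21 members in KO libraries 1 and 2 (circles) and WT libraries 1 and 2 (squares), with bars at the mean of the 2 libraries of a genotype. Dkc1, Fbl, Nop53 and Polr1c sit lower in both KO libraries, whereas Polr1d, Nop10, Nhp2, Npm1 and Ncl overlap between genotypes.

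The snoRNP proteins held the largest single difference. Dkc1 (X chromosome, 75095854 to 75109777, plus strand, GRCm38) encodes dyskerin, the enzyme that converts uridine to pseudouridine in ribosomal RNA under the guidance of box H/ACA snoRNAs, and that also binds telomerase RNA. It was at 31.9 and 33.7 FPKM in the KO libraries, against 43.6 and 46.2 FPKM in the WT libraries, from 2418 and 2369 reads in KO against 3313 and 3160 reads in WT. Both KO values lay well below WT, by −0.44 on the log2 scale (SE 0.08, 95% limits −0.64 to −0.24; limma adjusted p = 0.0804). Over the 9 alternatives its adjusted p ran from 0.0126 by limma-voom on reads to 0.280 without WT library 1, and only limma-voom took it past the threshold.

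Dyskerin's partners in the box H/ACA particle did not all show such a gap. Gar1, which joins last and is needed for the active particle, was at 21.4 and 19.4 FPKM in KO against 30.9 and 21.7 FPKM in WT. Its log2 change of −0.33 (SE 0.17, adjusted p = 0.306) rested on WT library 1, the WT libraries being further apart than WT library 2 was from KO. Nhp2, an RNA-binding core protein, was the most abundant of all 57 transcripts, at 252.7 and 229.8 FPKM in KO against 271.6 and 239.2 FPKM in WT, and the groups overlapped (log2 change −0.08, adjusted p = 0.703). Nop10, the small protein that braces dyskerin, was at 155.7 and 148.8 FPKM in KO against 150.4 and 152.3 FPKM in WT (0.01, adjusted p = 0.964), and its sign turned with the library medians made equal, without WT library 1 and without KO library 1. Per length, transcripts of Nhp2 and Nop10 were therefore several times as abundant as those of Dkc1 and Gar1 in all 4 libraries.

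Of the box C/D proteins, which carry out ribose methylation, all 3 were below WT in both KO libraries, where 24.9% of all tested genes were. Fbl, the methyltransferase fibrillarin, was at 36.1 and 33.0 FPKM in KO against 41.6 and 40.5 FPKM in WT, which is −0.24 on the log2 scale (SE 0.08, adjusted p = 0.197). The scaffold Nop58 was at 20.6 and 19.6 FPKM in KO against 21.2 and 24.6 FPKM in WT (−0.18, adjusted p = 0.355). Its partner Nop56 was at 81.7 and 81.2 FPKM in KO against 84.9 and 86.9 FPKM in WT (−0.08, adjusted p = 0.609), and 8.1% of its exonic bases are shared with other annotated genes, among them a snoRNA. Over the 7 snoRNP genes 0 rose, 0 fell, and 6 had a log2 change below 0, where 46% of all tested genes did. Their median was −0.18, or −0.09 without WT library 1, against 0.03 over all tested genes.

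**Figure D3:**
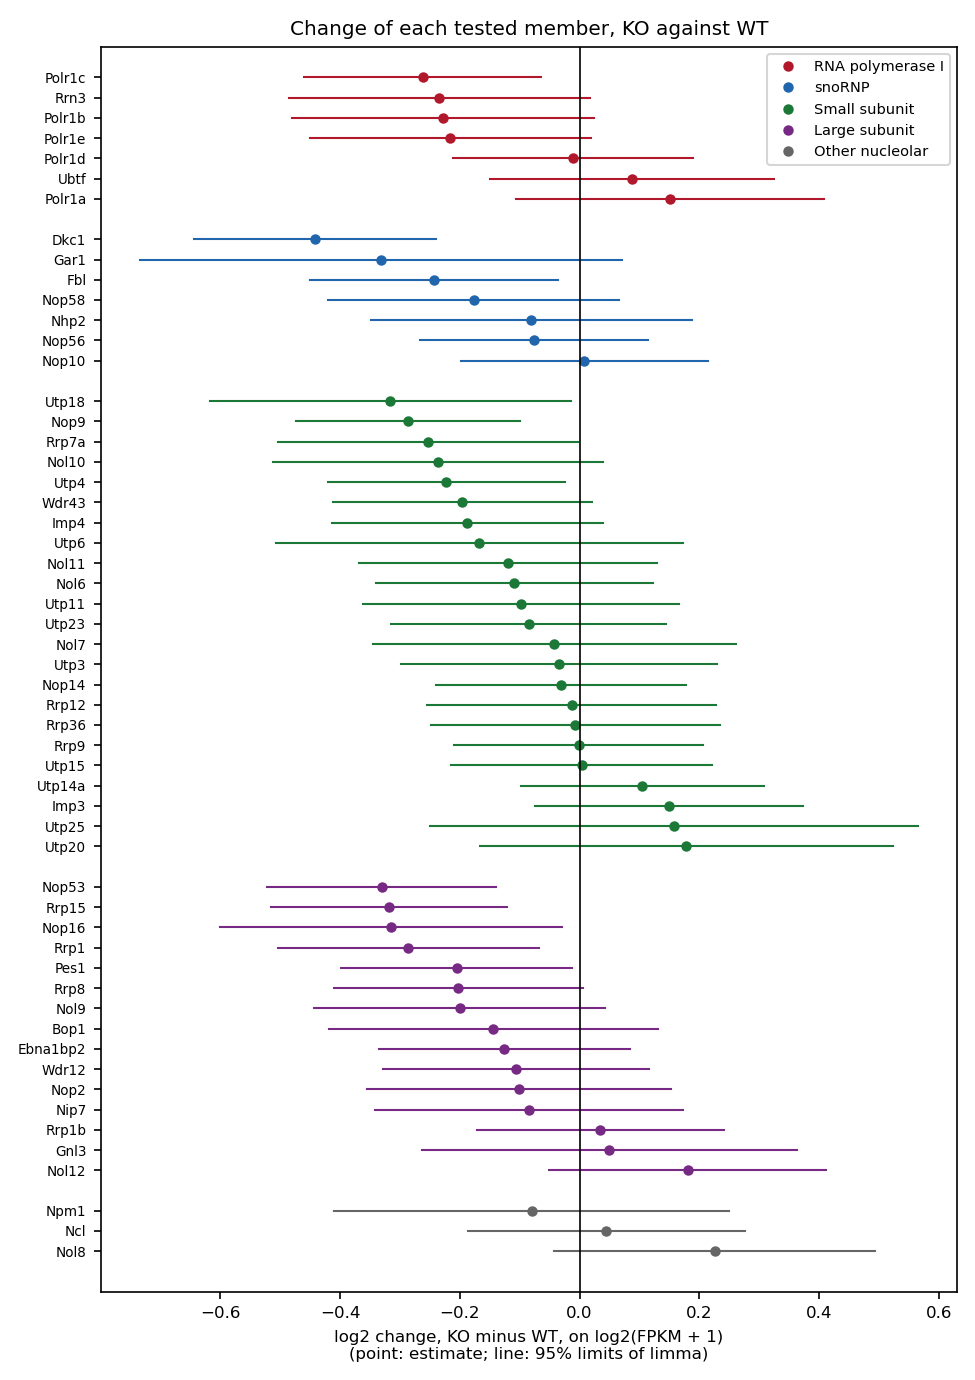
Log2 change, KO minus WT on log2(FPKM + 1), of each of the 55 tested members (points) with the 95% limits of limma (lines), grouped by role and ordered within a role. Dkc1 has the lowest value, −0.44, and Nol8 the highest, 0.23.

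The small subunit processome, the particle that folds and cuts the precursor of the small subunit RNA, gave the largest group, with 24 members of which 23 were tested. None rose or fell, and 18 had a log2 change below 0 (background 46%). Their median was −0.09, or −0.0375 without WT library 2, against 0.03 over all tested genes. Of the 23, 9 were below both WT libraries in both KO libraries (background 24.9%), and 3 were above (background 30.5%). Utp18, a WD-repeat protein of the particle, was at 12.7 and 13.5 FPKM in KO against 18.5 and 14.7 FPKM in WT, a log2 change of −0.32 (SE 0.12, adjusted p = 0.228). As for Gar1, the WT libraries were far apart. Nop9, an RNA-binding protein, had tight replicates, at 31.2 and 30.4 FPKM in KO against 37.8 and 37.7 FPKM in WT (−0.29, SE 0.08, adjusted p = 0.142). Of its exonic bases 29.9% are shared with Cideb on the other strand, and the library kit is not described as keeping strand, so its reads cannot be assigned with certainty.

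Members of the same particle also lay on the other side. Imp3 and Imp4 act together in a small complex that pairs the U3 snoRNA with the precursor. Imp3 was at 68.5 and 76.9 FPKM in KO against 63.9 and 66.7 FPKM in WT (log2 change 0.15, adjusted p = 0.391), whereas Imp4 was at 12.4 and 11.6 FPKM in KO against 14.4 and 13.2 FPKM in WT (−0.19, adjusted p = 0.304). The groups did not overlap for either gene, in opposite directions, and the difference between the pair was not tested. Utp20, a very large scaffold protein, was at 2.56 and 2.71 FPKM in KO against 1.98 and 2.46 FPKM in WT (0.18, adjusted p = 0.496). Utp25 was at 1.37 and 1.85 FPKM in KO against 1.42 and 1.25 FPKM in WT (0.16, adjusted p = 0.618), the lowest level of a tested member.

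Several small subunit factors matched closely between genotypes. Rrp9, a protein of the U3 snoRNP, was at 23.4 and 21.9 FPKM in KO against 23.3 and 22.0 FPKM in WT, a log2 change of 0.00 (95% limits −0.21 to 0.21). Utp15 was at 11.9 and 11.3 FPKM in KO against 11.8 and 11.3 FPKM in WT, with limits of −0.21 to 0.22, and the signs of both turned in some of the alternatives. Rrp7a, Utp4 and Wdr43 lay below WT in both KO libraries, with log2 changes of −0.25, −0.22 and −0.20 and adjusted p of 0.238, 0.207 and 0.270 by limma. Utp14b, a retrotransposed copy of Utp14a, was under the level needed for testing, at 0.481 and 0.535 FPKM in KO against 0.438 and 0.377 FPKM in WT, and reads of such copies can be split wrongly.

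Large subunit assembly factors, 15 genes, showed 12 log2 changes below 0 (background 46%) and a median of −0.14, against 0.03 over all tested genes. Of the 15, 8 lay below both WT libraries in both KO libraries (background 24.9%) and 2 above (background 30.5%). None rose or fell. Nop53, which docks the nuclear exosome and its helicase on the maturing large subunit, was at 60.7 and 60.5 FPKM in KO against 78.1 and 74.9 FPKM in WT. Its replicates differed little beside the gap between genotypes, at −0.33 on the log2 scale (SE 0.08, adjusted p = 0.118 by limma and 0.0427 by limma-voom). Rrp15 was at 22.6 and 23.6 FPKM in KO against 29.7 and 28.4 FPKM in WT (−0.32, SE 0.08, adjusted p = 0.131). Rrp1 was at 88.9 and 80.8 FPKM in KO against 101.3 and 106.0 FPKM in WT (−0.29, SE 0.09, adjusted p = 0.174), while its paralog Rrp1b was at 12.6 and 12.3 FPKM in KO against 12.2 and 12.0 FPKM in WT (0.03, negative with the library medians made equal). Nop16 was at 63.3 and 51.5 FPKM in KO against 74.1 and 68.7 FPKM in WT (−0.31, adjusted p = 0.212).

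Pes1, Bop1 and Wdr12 form the PeBoW complex, which is needed to process the large subunit RNA. Pes1 was at 56.2 and 53.3 FPKM in KO against 63.5 and 63.0 FPKM in WT (log2 change −0.21, adjusted p = 0.222). Bop1 was at 37.0 and 33.3 FPKM in KO against 42.5 and 35.6 FPKM in WT (−0.14, adjusted p = 0.489), and Wdr12 at 27.3 and 24.5 FPKM in KO against 27.2 and 28.6 FPKM in WT (−0.11, adjusted p = 0.532). The groups were apart for Pes1 and overlapped for its partners. Gnl3, the GTP-binding protein nucleostemin, known for its abundance in stem cells, was at 17.1 and 21.7 FPKM in KO against 17.8 and 19.4 FPKM in WT (0.05, adjusted p = 0.849), and its sign turned without WT library 1 or KO library 2. Nol12, an RNA-binding protein, was at 15.9 and 17.1 FPKM in KO against 15.2 and 13.7 FPKM in WT (0.18, adjusted p = 0.327).

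The abundant nucleolar proteins nucleophosmin and nucleolin, both chaperones of ribosome assembly, were close between genotypes. Npm1 was at 189.9 and 209.4 FPKM in KO against 187.4 and 237.2 FPKM in WT (log2 change −0.08, 95% limits −0.41 to 0.25, adjusted p = 0.760). The WT libraries enclosed the KO libraries, and the sign turned without WT library 2. Npm1 has processed copies elsewhere in the mouse genome, which can take or lend reads. Ncl was at 67.8 and 75.1 FPKM in KO against 66.0 and 72.4 FPKM in WT (0.04, 95% limits −0.19 to 0.28, adjusted p = 0.813), and its sign turned without WT library 1 or KO library 2. Nol8 had the highest log2 change of the set, 0.23 (SE 0.11, adjusted p = 0.297), at 4.77 and 4.86 FPKM in KO against 3.78 and 4.17 FPKM in WT. Nol4l, included for its symbol and not known here as an assembly factor, was at 0.747 and 1.10 FPKM in KO against 0.531 and 0.783 FPKM in WT and was not tested.

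Other genes of the same pathway were listed by their function. Of 119 tested assembly genes outside the 57, 0 rose and 0 fell by limma, 82 had a log2 change below 0 (68.9%, background 46%), and the median was −0.08. At an unadjusted p below 0.05, 16 were lower (13.4%, background 9.35%) and 3 higher (2.52%, background 11.4%). By limma-voom 2 of them fell, a share of 1.68% that is below the background of 2.99%. These were Eif6, which keeps the large subunit from joining too early and was at 97.4 and 81.9 FPKM in KO against 126.4 and 115.4 FPKM in WT (log2 change −0.43, limma adjusted p = 0.135), and the exosome subunit gene Exosc3, at 55.8 and 46.7 FPKM in KO against 65.9 and 71.0 FPKM in WT (−0.42, adjusted p = 0.139). Medians were −0.18 over 10 snoRNP assembly genes, −0.12 over 14 exosome and nuclease genes, −0.09 over 35 small subunit genes and −0.06 over 42 large subunit genes, against 0.03 over all tested genes.

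Of the 18 polymerase I transcription genes outside the 57, 10 had a log2 change above 0 and 8 below (background below 46%), and the median was 0.08. The 18 include subunits of the enzyme that the symbol rule missed. Cd3eap and Twistnb, at log2 changes of 0.24 and 0.10, lay above WT in both KO libraries, and Znrd1, at −0.06, overlapped. Of subunits shared with other polymerases, Polr2f (0.40) and Polr2k (0.16) lay above WT in both, Polr2h (−0.07) below, and Polr2e (−0.09) and Polr2l (−0.02) overlapped. In that list 0 rose and 0 fell by limma or limma-voom. At an unadjusted p below 0.05, 3 were higher (background 11.4%) and 1 lower (background 9.35%). Ttf1, which ends polymerase I transcription, was at 6.17 and 5.85 FPKM in KO against 4.43 and 4.95 FPKM in WT (log2 change 0.30, adjusted p = 0.203), and Taf1a, a subunit of the promoter selectivity factor, at 6.13 and 5.56 FPKM in KO against 7.06 and 9.03 FPKM in WT (−0.40, adjusted p = 0.193). Of the 10 polymerase III subunits 8 had a log2 change below 0 (median −0.15, background 46% below 0). By either test 0 were called, and 2 were lower at an unadjusted p below 0.05 (background 9.35%). Polr3k had the smallest p, at 21.01 and 19.6 FPKM in KO against 24.4 and 26.0 FPKM in WT (−0.30, adjusted p = 0.157).

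**Figure D4:**
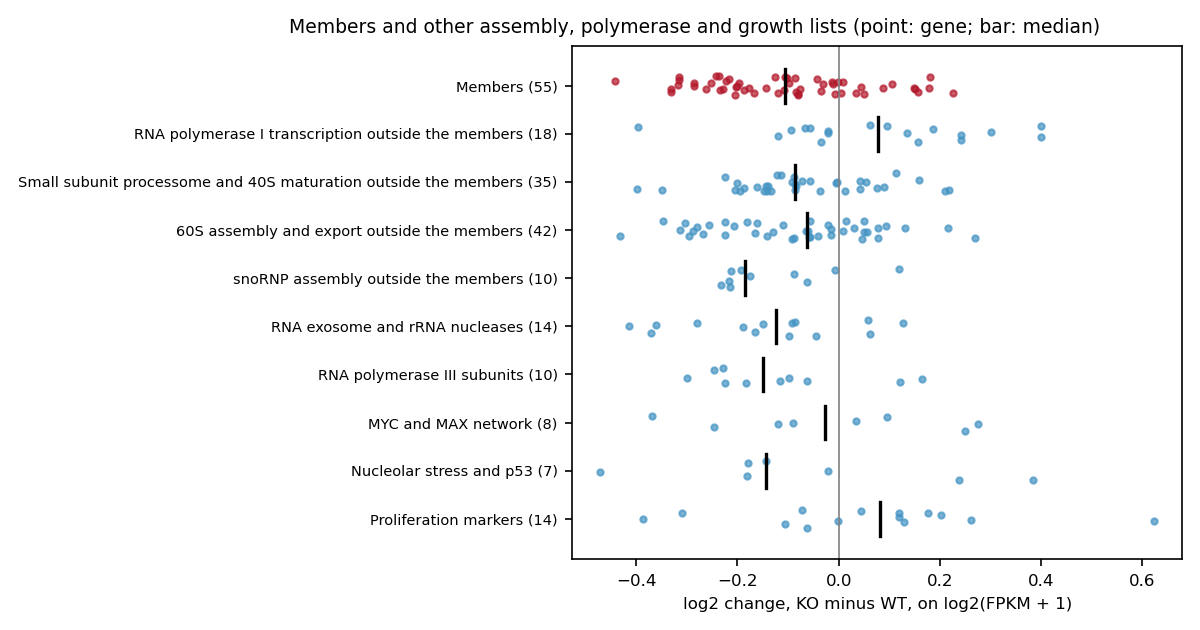
Log2 change, KO minus WT on log2(FPKM + 1), of the 55 tested members and of the tested genes of 9 other lists (points), with the number of genes in brackets and a bar at each median. Medians lie below 0 in 8 of the 10 rows and above 0 for polymerase I transcription genes outside the members (0.08) and for proliferation markers (0.08).

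The regulators that set the programme were examined last. Myc was at 155.7 and 132.0 FPKM in the KO libraries, against 170.2 and 170.6 FPKM in the WT libraries, a log2 change of −0.25 (SE 0.11, adjusted p = 0.257), and both KO libraries lay below WT. That value was −0.13 without KO library 2, whose labels disagree, and −0.37 without KO library 1. Its dimer partner Max was at 5.93 and 5.91 FPKM in KO against 7.52 and 8.38 FPKM in WT (−0.37, adjusted p = 0.147), and Mxi1, which opposes Myc at shared sites, at 7.07 and 6.72 FPKM in KO against 5.51 and 5.52 FPKM in WT (0.28, adjusted p = 0.1999). Over the 8 tested genes of the network 0 were called by limma or limma-voom, and the median was −0.03. At an unadjusted p below 0.05, 1 was lower (background 9.35%) and 2 higher (background 11.4%).

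In the list of nucleolar stress and p53 genes (7 tested, median −0.14) 0 were called by limma, and limma-voom called 1 rise (background 4.4%). At an unadjusted p below 0.05, 1 was lower (background 9.35%) and 1 higher (background 11.4%). Cdkn2a, whose ARF product acts in the nucleolus, was at 7.97 and 9.17 FPKM in KO against 12.4 and 12.1 FPKM in WT (log2 change −0.47, adjusted p = 0.104). Mdm4, an inhibitor of p53, was the rise by limma-voom, at 9.76 and 10.4 FPKM in KO against 6.67 and 8.35 FPKM in WT (0.38, limma adjusted p = 0.180). Of 14 proliferation markers 8 had a log2 change above 0 and 6 below (background below 46%), and the median was 0.08. By limma 0 of them were called, and limma-voom called 1 rise (background 4.4%) and 1 fall (background 2.99%). At an unadjusted p below 0.05, 2 were lower and 2 higher, with the same backgrounds. Mki67 was at 22.9 and 32.1 FPKM in KO against 15.9 and 18.7 FPKM in WT (0.62, limma adjusted p = 0.143), and the mitotic cyclin gene Ccnb1 at 52.7 and 47.0 FPKM in KO against 63.6 and 67.1 FPKM in WT (−0.39, adjusted p = 0.118).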

How the data were processed

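Poly(A) mRNA of leukaemia stem cells was sequenced in 2 KO and 2 WT libraries, and the titles set the groups. CASAVA, HISAT2 2.1.0, featureCounts, DESeq2 and the build GRCm38 appear in the submitters' processing notes, which give them no role here. The table deposited by the authors names no unit. Its values behaved as FPKM to which the authors had added 1: none was below 1, and after subtraction and multiplication by exonic length (GENCODE M21, 16014 of 16442 symbols matched) 99.0% to 99.2% of the values under about 30 reads came out whole, to a tolerance of 0.05 reads. At these depths 3 reads on 2 kb of exon amount to 0.0813 to 0.0904 FPKM, for counting error only.

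After subtraction of 1, the 11768 genes averaging 1 FPKM or more were tested together with limma 3.58.1 (R 4.3.3, trend, two-sided, KO minus WT) on log2(FPKM + 1), a scale that understates changes of low genes, with Benjamini-Hochberg adjustment and a threshold of 0.05. A permutation test of 2 against 2 libraries cannot give p below 0.333, so p-values rest on the spread limma shares between genes. Utp25 was matched by its older symbol Diexf. The procedure was also run on simulated reads, in which the changed genes differed by more than any member did. That run therefore does not show how well changes of the members' size are found. Members, lists and alternatives were chosen with earlier results of these data known. Named were the members with the 6 largest rises and falls, the 3 highest and lowest levels and 20 core genes, with Rreb1, Myc and up to 2 genes per other list by p. Polr1c, Polr1d, Polr1e, Nop9, Rrp1, Rrp1b, Rrp9, Utp15, Rrp7a, Utp4, Wdr43, the polymerase I subunits outside the members and the marker genes were chosen after their values were seen.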

Additional observations from a re-analysis of the deposited data

How the results depend on the processing

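Alternatives were a pseudocount of 0.1, no filter on level, library medians made equal, each library left out in turn, the replicate number as a block, and limma-voom on recovered reads. The counts of 0 members higher and 0 lower, and of 0 called genes in the other assembly lists, were also 0 under each of them except limma-voom, which called 2 members lower and 2 genes of the other lists. The median log2 change of the members was −0.14 with library medians made equal and −0.161 to −0.077 with 1 library left out (lowest without KO library 1, highest without KO library 2 and without WT library 2). Fits with 1 library left out assume that the lone library varies like the others. They could call little: over all genes they gave 0 rises and 0 falls without WT library 1, 8 and 3 without WT library 2, 54 and 15 without KO library 1 and 17 and 7 without KO library 2, so their counts of 0 members say nothing on stability. In the fit with a replicate block 0 members were called and the median stayed at −0.11; the numbers pair the libraries by name only (correlation of same-numbered deviations 0.009), and over all genes the block gave 40 rises and 26 falls, against 71 and 48. Over all genes the calls were 45 and 28 with medians equal, 22 and 10 without the filter and 501 and 340 by limma-voom. Depth limits little here: the members' reads are many, and the 2 libraries per genotype set the precision.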
